A study of Mus musculus with 4 samples.

Results

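Lenses of Celf1 cKO mice and of Control mice at postnatal day 6 (P6) were compared for the genes that build, use and recycle glutathione and thioredoxin. Members were chosen by symbol: every array probe whose symbol begins with Gst, Mgst, Gpx, Prdx, Txn, Glrx or Msr, and the probes of Gclc, Gclm, Gss, Gsr, Sod1, Sod2, Sod3, Nqo1, Srxn1, Nfe2l2 and Keap1. A probe was retained when its detection p-value, which ranks its signal against control beads with no target, was under 0.05 on at least 2 of the 4 arrays. The rule matched 151 probes of 85 genes, and 59 of these genes had a retained probe among the 11516 genes that were tested in all.

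The series holds 4 Illumina MouseWG-6 BeadChip arrays, each hybridised with RNA of 1 lens, for 2 Celf1 cKO lenses (A and B) and 2 Control lenses (A and B). Celf1 codes for an RNA-binding protein. The Celf1 cKO mice carried a germline lacZ knock-in allele of Celf1, a floxed allele whose exon 5 can be removed, and the Pax6GFPCre transgene (P0-3.9GFPCre), which makes Cre from the lens placode onwards and also in the pancreatic lineage. The Control mice carried the lacZ knock-in allele beside a normal allele, so that all 4 lenses had 1 knock-in allele and only the Celf1 cKO lenses had Cre and the floxed allele. An effect of Cre itself therefore cannot be told apart from that of Celf1 loss. The strain background was mixed between C57BL/6 and FVB. No label gives litter or sex, and p-values measure only the spread between these lenses.

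The lens holds glutathione at a very high concentration, and loss of it accompanies cataract. Glutathione is a tripeptide made by glutamate-cysteine ligase and glutathione synthetase, spent by peroxidases, glutaredoxins and transferases, and restored by glutathione reductase. Thioredoxin is a small protein that does parallel work: it reduces peroxiredoxins and other disulfides and is itself restored by thioredoxin reductase. The transcription factor NRF2, held down by KEAP1, drives many of the genes of both systems through antioxidant response elements.

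Celf1 itself was lower in the lenses labelled Celf1 cKO. Its log2 intensities, averaged over 4 probes, were 7.45 and 6.95 in Celf1 cKO A and B and 8.71 and 8.55 in Control A and B. The groups did not overlap, and the log2 fold change was -1.43 ± 0.19 (SE; limma adjusted p = 0.00978), though without Control B the adjusted p was 0.056. Before normalization the Celf1 cKO arrays gave more signal than the Control arrays, with 16261 and 16925 probes detected against 14542 and 14180. Xist, the RNA of the silenced X chromosome, was at least 6.09-fold higher in Celf1 cKO lenses (adjusted p = 8.9e-04) and was not above background in either Control lens, while the Y-linked Ddx3y had a log2 fold change of -3.09 ± 0.55 (adjusted p = 0.0195). Ddx3y stood at 6.81 and 4.82 (log2 intensity) in Celf1 cKO A and B and at 8.99 and 8.82 in Control A and B, so the Celf1 cKO lenses lay far apart and A kept the higher signal, whereas Xist stood at 7.42 and 7.27 in Celf1 cKO A and B. The Y-linked Uty was above background in neither Control lens and passed the filter through the Celf1 cKO lenses alone. It gives only a bound, at least 1.03-fold higher there, and was not called (adjusted p = 0.226). Genotype and sex-linked transcripts cannot be told apart here. Of 14 lens fiber markers tested, 4 were called, all reduced (28.6%, beside 11.6% of all genes), and 12 lay below 0. Their summed normalized intensities were 225100 and 215300 in Celf1 cKO lenses against 246900 and 247600 in Control lenses. The sum is carried by the brightest markers, such as Crybb1 at log2 intensities of 15.04 to 15.23, and says little of dimmer ones. Of 11 lens epithelium markers 3 were called, all reduced (27.3%, beside 11.6% of all genes). Their summed normalized intensities were 12150 and 10490 in Celf1 cKO lenses against 16480 and 13990 in Control lenses. Of 7 macrophage markers tested, 3 were called (42.9%, beside 11.6% of all genes), all elevated, and the summed intensity was 268 and 303 against 187 and 192. Laptm5 was above background in all 4 lenses. Cd68 and C1qb passed the filter through the Celf1 cKO lenses alone and were at least 1.26-fold and 1.22-fold higher. C1qc, not called, passed in the same way. With markers that entered by being higher there, the share called is not comparable with that of all genes. Csf1r and Aif1 stood at log2 fold changes of -0.11 and -0.06 and were not called, while Adgre1, Ptprc and Tyrobp were detected on no array. Slc4a1, 1 of 3 blood markers tested, and Oca2, 1 of 3 pigment cell markers, were reduced (log2 fold change -1.03 and -0.78, adjusted p = 0.0114 and 0.0208). The other blood markers, Hba-a1 and Hbb-b1, stood at -0.08 and 0.05, and all 3 pigment cell markers lay below 0. Emcn, 1 of 8 vessel markers, was elevated (1.12, adjusted p = 0.0177), but 4 of the 8 lay above 0 and 4 below. The part of sex, brightness and cell mixture in the results below was not tested, and in whole lenses fewer cells of a type and less RNA per cell cannot be told apart.

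Among the 59 genes, 5 were called elevated (Txnip, Mgst1, Gpx3, Glrx5, Tmx4) and 5 were called reduced (Gstm2, Gstk1, Gstm6, Gpx8, Gsta3) in Celf1 cKO lenses. A gene was called when its limma p-value, adjusted by Benjamini-Hochberg for all 11516 genes, was under 0.05, its log2 fold change exceeded 0.58 in either direction, and its log2 signal averaged more than 4.6. The same rule called 6.01% of all genes elevated and 5.64% reduced, 11.6% in either direction, beside 16.9% of these 59. The groups did not overlap for 41 of the 59 genes (69.5%), 19 higher and 22 lower in Celf1 cKO lenses, against 62.3% of all genes. The median log2 fold change was 0.10 over the 59 genes and 0.01 over all genes, and 31 genes lay above 0. Elevated and reduced genes stood side by side within the transferases and within the peroxidases.

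**Figure D1:**
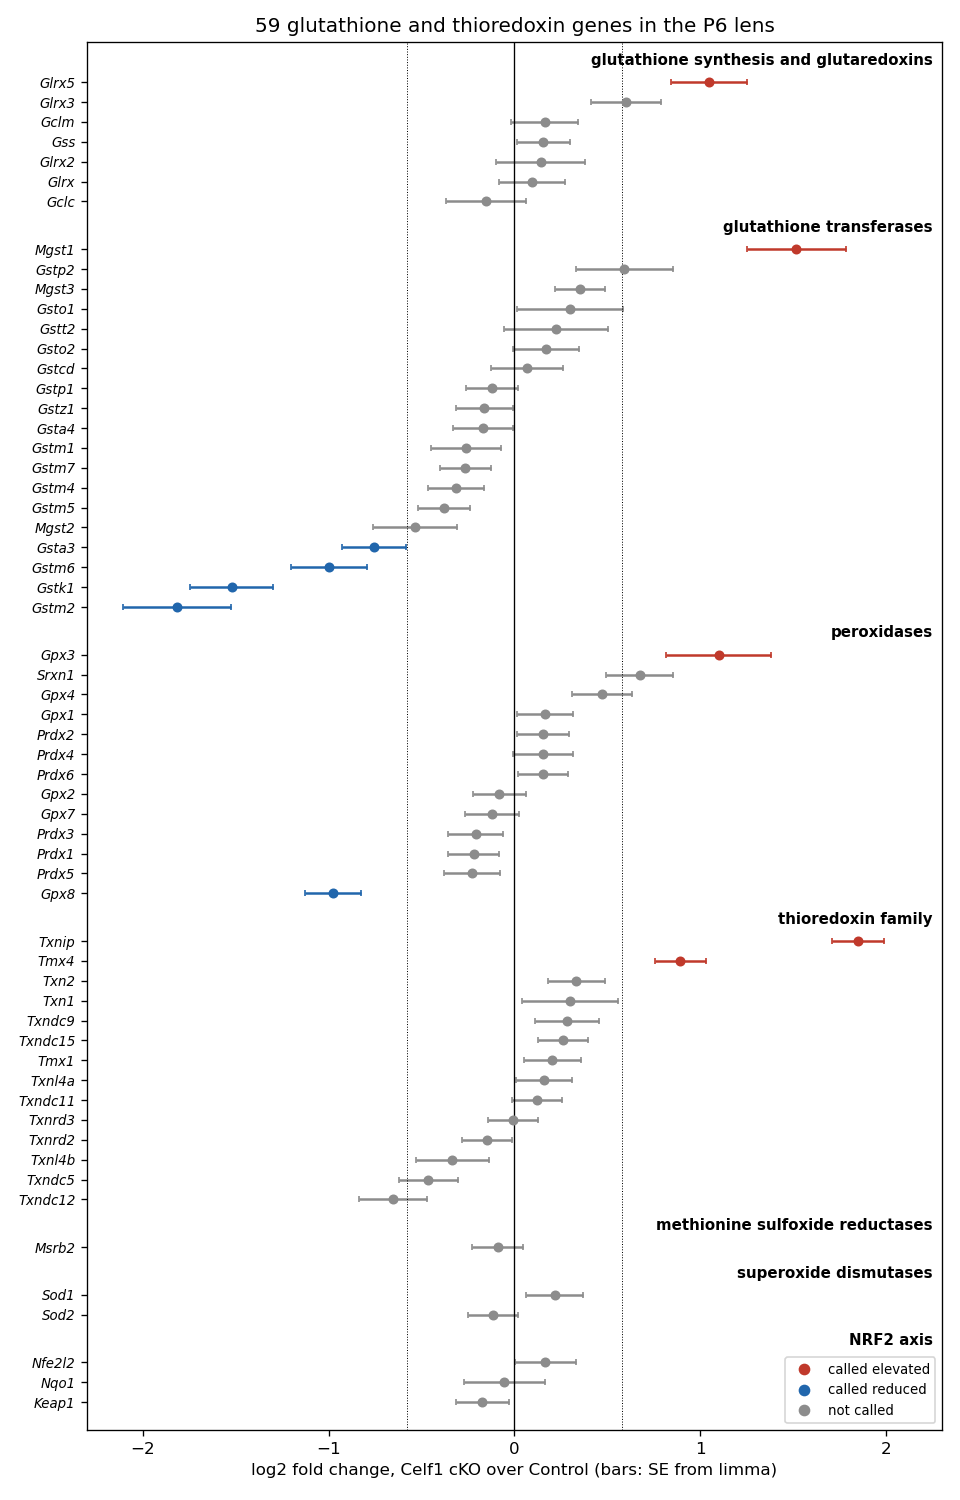
Each point is the log2 fold change of 1 gene (x axis, Celf1 cKO over Control, 2 lenses a group) with its limma standard error, grouped by role, and dotted lines mark the fold threshold of 0.58 in each direction. The 5 elevated and 5 reduced genes lie outside the dotted lines, from 1.85 for Txnip to -1.82 for Gstm2, and most others lie close to 0.

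Txnip had the largest log2 fold change of the 59 genes. It codes for thioredoxin-interacting protein, which binds reduced thioredoxin and holds it inactive, and which also limits glucose uptake. The log2 intensities were 8.25 and 8.37 in Celf1 cKO A and B, and 6.41 and 6.52 in Control A and B. Both Celf1 cKO lenses lay far above both Control lenses, and lenses of a group differed little. Txnip was 3.60-fold higher (log2 fold change 1.85 ± 0.14, SE, n = 2 and 2; limma adjusted p = 0.00214).

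Txnip was measured by a pair of probes of 50 bases with no shared stretch, and the first 30 bases of each are shown because they cover separate stretches of the transcript:
Txnip probe 1: gctgctttcactgtggcctcagccctggct
Txnip probe 2: gggcacagaagcccccagaccccatttcct
On probe 1, the intensity as deposited, without normalization, was 686 and 807 in Celf1 cKO lenses and 131 and 103 in Control lenses. On probe 2 it was 263 and 304 against 83.5 and 77.5. Both probes rose, by log2 fold changes of 2.19 and 1.5 (adjusted p = 9.8e-04 and 0.00409). Txnip stayed called when any 1 of the 4 lenses was left out, with log2 fold changes between 1.77 and 1.94. It was lost only on the deposited normalized intensities with values under 1 set to 1 (2.02, adjusted p = 0.0573), where 7 of all 11516 genes were called.

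The promoter of Txnip is known for a carbohydrate response element, a pair of CACGAG boxes spaced by 5 bases through which glucose raises its transcription. The stretch below is from RefSeq on GRCm38.p6, chr3:96557852-96557947, plus strand. Capitals mark the paired boxes with their spacer and the TATATAAG stretch:
Txnip promoter: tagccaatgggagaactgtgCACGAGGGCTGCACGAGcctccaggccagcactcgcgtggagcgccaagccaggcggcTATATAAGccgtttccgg
This arrangement of CACGAG, 5 bases and CACGAG again, searched on both strands from 250 bases before to 50 bases after each gene start, was found in 1 of 32851 windows, that of Txnip. Its letters were taken from the known element, so the match is a description, and no measurement here bears on what binds it.

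The glutathione transferases, which join glutathione to reactive compounds, gave 5 of the 10 calls. Of 19 transferase genes tested, Mgst1 was elevated, Gstm2, Gstk1, Gstm6 and Gsta3 were reduced and 14 were not called, and the median log2 fold change was -0.17. Of the 19, 7 lay above 0 and 12 below. The 5 calls are 26.3% of the 19, beside 11.6% of all genes, and 5630 of all 11516 genes lay below 0.

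Gstm2, a cytosolic transferase of the mu class, had the most negative log2 fold change of the 59 genes. The log2 intensities were 8.73 and 7.78 in Celf1 cKO A and B, and 9.998 and 10.14 in Control A and B. The groups did not overlap, and the Celf1 cKO lenses lay further apart than the Control lenses. Gstm2 was 3.52-fold lower (log2 fold change -1.82 ± 0.29, SE; adjusted p = 0.0143). It was measured by 3 probes, of which the first 30 bases are shown, because they are not all separate measurements. Capitals mark bases within the 48 that probes 1 and 2 share:
Gstm2 probe 1: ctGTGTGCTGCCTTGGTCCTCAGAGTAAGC
Gstm2 probe 2: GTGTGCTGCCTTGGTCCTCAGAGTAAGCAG
Gstm2 probe 3: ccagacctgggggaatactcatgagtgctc
The overlapping probes gave log2 fold changes of -1.84 and -1.82, and the separate probe 3 gave -1.79. Without normalization, the intensity of probe 3 was 321 and 196 in Celf1 cKO lenses and 481 and 426 in Control lenses, lower although the Celf1 cKO arrays were brighter. Without Control B the log2 fold change was -1.74 and the call was lost (adjusted p = 0.0837).

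The mu-class genes form a cluster on chromosome 3, and all 6 that were tested (Gstm1, Gstm2, Gstm4, Gstm5, Gstm6 and Gstm7) had log2 fold changes below 0 as reported here. Their median was -0.35, and 2 of the 6 (33.3%), Gstm2 and Gstm6, were called, beside the 11.6% called and the 5630 of 11516 below 0 among all genes. Nothing particular to the cluster was tested. When arrays were aligned only by the median of all probes, or not at all, 2 of the 6 lay below 0 and the median of the 6 was 0.24 and 0.27, while the median of all genes stood at 0.53 and 0.57 and 5 of the 6 lay below it. Gstm6 had log2 intensities of 7.20 and 6.63 in Celf1 cKO lenses against 7.88 and 7.94 in Control lenses. Its lenses did not overlap, at -0.998 ± 0.20 on the log2 scale (adjusted p = 0.0272) and 3 probes between -1.23 and -0.78. The call of Gstm6 was lost without Celf1 cKO B, Control A or Control B, and under both of those scalings. Gstm1 had 2 probes that differed in sign, at -0.73 and 0.21, and was not called (-0.26 ± 0.19, adjusted p = 0.381). The probe at 0.21 lay near background, at 43.0 to 63.9 before normalization, and was not detected in Control B. Gstm4, Gstm5 and Gstm7 had log2 fold changes of -0.31, -0.38 and -0.27 and were not called.

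Gstk1, the kappa-class transferase of mitochondria and peroxisomes, was reduced. Its log2 intensities were 6.36 and 5.82 in Celf1 cKO lenses and 7.42 and 7.80 in Control lenses. Every Control lens lay above both Celf1 cKO lenses, and Gstk1 was 2.87-fold lower (log2 fold change -1.52 ± 0.22, adjusted p = 0.0119). The probes, shown because they cover separate stretches of the transcript, gave -1.80 and -1.24:
Gstk1 probe 1: cttctgtgcctcacaagtgccttttgaaaa
Gstk1 probe 2: atctgatgtggccctgggagctggagcaag
Gstk1 and Gstm2 were the only genes of the 59 whose intensity without normalization was lower on both Celf1 cKO arrays than on both Control arrays. With no normalization between arrays their log2 fold changes shrank to -0.77 and -0.97, and both stayed called. The Gstk1 call was lost without Celf1 cKO B (adjusted p = 0.0633) or Control B (0.07).

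Gsta3, a cytosolic transferase of the alpha class, was reduced by less. Its log2 intensities were 5.33 and 5.01 in Celf1 cKO lenses and 6.07 and 5.79 in Control lenses. The groups were separate but close, at -0.76 ± 0.17 (adjusted p = 0.0375). This call was lost whichever lens was left out, and it held under 3 of 7 other scalings or background corrections.

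Mgst1, a membrane-bound transferase of the endoplasmic reticulum and mitochondria that also reduces lipid peroxides, moved the other way. Its log2 intensities were 6.63 and 7.47 in Celf1 cKO A and B, and 5.43 and 5.64 in Control A and B. The Celf1 cKO lenses lay apart from each other but above both Control lenses. Mgst1 was 2.86-fold higher (log2 fold change 1.52 ± 0.27, adjusted p = 0.0193). The first 30 bases of both of its probes are shown because only probe 2 was above background in Control lenses:
Mgst1 probe 1: cgctggctttggcaagggagagaatgccaa
Mgst1 probe 2: ccacaccattgcttacttgactccccttcc
Probe 1 was above background in neither Control lens, at 48.8 and 50 before normalization in Control B and A against 79.2 and 150 in Celf1 cKO lenses, and passed the filter through the Celf1 cKO lenses. It gives only a bound, at least 2.33-fold higher in Celf1 cKO lenses, and the 2.86-fold of the gene averages it in at its measured values. Probe 2, above background in all 4 lenses, was at 103 and 89.7 in Control A and B against 329 and 521 in Celf1 cKO A and B and by itself gave a log2 fold change of 1.68 ± 0.22 (adjusted p = 0.00673). Leaving out Control A (adjusted p = 0.0544) or Control B (0.0775) ended the call, and with another background correction, normexp with an offset of 50, the log2 fold change was 0.99. The other microsomal genes, Mgst2 and Mgst3, were not called, at -0.54 ± 0.23 and 0.35 ± 0.13 (adjusted p = 0.155 and 0.125).

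**Figure D2:**
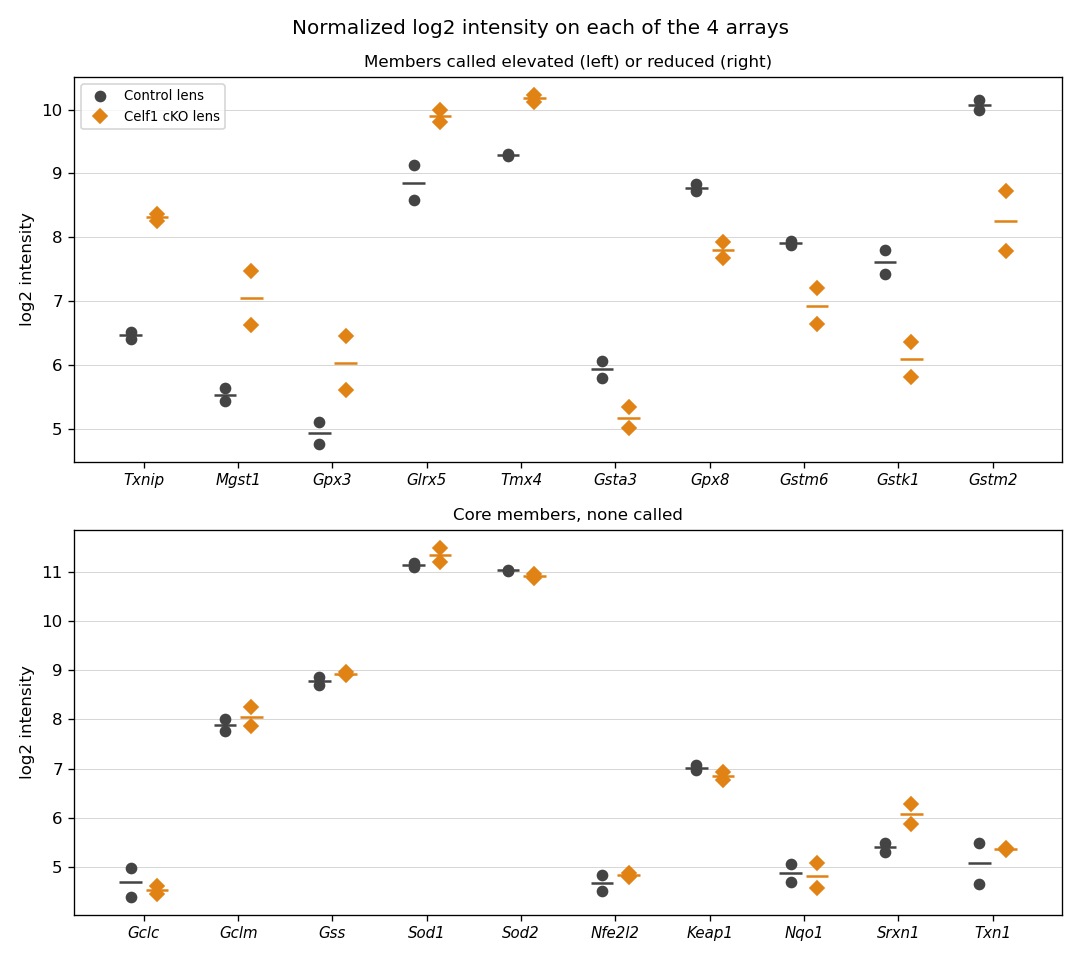
Normalized log2 intensity (y axis) on each of the 4 arrays for the 10 called genes (upper panel) and for 10 core genes that were not called (lower panel), with circles for Control lenses, diamonds for Celf1 cKO lenses and lines for the group means of 2 lenses; heights of different genes are not comparable, since probes differ in brightness. The groups are separate for all 10 called genes, and the Celf1 cKO lenses of Gstm2, Mgst1 and Gpx3 lie furthest apart.

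Peroxidases remove hydrogen peroxide and lipid peroxides. Of 13 peroxidase genes tested, Gpx3 was elevated, Gpx8 was reduced (15.4% called, near the 11.6% of all genes) and 11 were not called. None of the 6 peroxiredoxins, most of which draw on thioredoxin, was called by limma, and none had an unadjusted p under 0.05: their log2 fold changes ran from -0.23 to 0.15. Prdx6 was not above background in either Control lens.

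Gpx3, the glutathione peroxidase secreted into extracellular fluid, had log2 intensities of 5.61 and 6.45 in Celf1 cKO lenses and 4.76 and 5.11 in Control lenses. The Celf1 cKO lenses lay higher, with a wide gap between them. In Control A and B the signal was near background, at 55.6 and 53.3 before normalization. The log2 fold change was 1.10 ± 0.28 (adjusted p = 0.0486), the closest to the threshold of the 10 calls. It held in 1 of 4 fits with a lens left out, that without Celf1 cKO A, and under 2 of 7 other scalings or background corrections. Without Celf1 cKO B the log2 fold change was 0.62 (adjusted p = 0.231), and it was 0.57 both with normexp (0.0732) and without background correction (0.0738).

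Gpx8, a peroxidase of the endoplasmic reticulum membrane that uses cysteine in place of selenocysteine, had log2 intensities of 7.93 and 7.67 in Celf1 cKO lenses and 8.72 and 8.83 in Control lenses. Both Celf1 cKO lenses lay below both Control lenses, and the spread within groups was small. The log2 fold change was -0.98 ± 0.15 (adjusted p = 0.0141), 1.97-fold lower, and each of 3 probes was called by itself, although 2 of them share 49 bases. The call was lost without Celf1 cKO B or Control B, and with arrays set to the same median or not normalized, where the log2 fold change was -0.16 and -0.13.

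The other glutathione peroxidases were not called. Gpx4, which reduces lipid hydroperoxides in membranes, stood at 0.47 ± 0.16 (adjusted p = 0.0977). Its 3 probes ran from 0.30 to 0.75, and only the brightest, at 0.75, was called by itself (limma adjusted p = 0.0453). Gpx1, the main cytosolic form, stood at 0.16 ± 0.15 (adjusted p = 0.495). Gpx2 and Gpx7, near background, stood at -0.08 ± 0.14 and -0.12 ± 0.14. Srxn1, sulfiredoxin, which restores overoxidised peroxiredoxins, came close to a call. Its log2 intensities were 5.86 and 6.28 in Celf1 cKO lenses against 5.30 and 5.48 in Control lenses, and the groups did not overlap. Its log2 fold change was 0.67 ± 0.18 (95% interval 0.25 to 1.10; adjusted p = 0.0541), and its probes gave 0.66 and 0.68.

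The thioredoxin family gave 2 calls among 14 genes (14.3%, near the 11.6% of all genes), Txnip and Tmx4, both elevated. Tmx4 codes for a thioredoxin-related protein of the endoplasmic reticulum membrane. Its log2 intensities were 10.13 and 10.23 in Celf1 cKO lenses and 9.27 and 9.30 in Control lenses. The lenses of each group were nearly level and the groups were well apart, at 0.89 ± 0.14 (adjusted p = 0.0135), 1.86-fold higher. Its call was lost without Celf1 cKO B or Control B, where the log2 fold change was 0.84 and 0.90. Over 7 other scalings or background corrections Tmx4 stayed called and ran from 0.85 to 1.73.

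Of the 4 tested thioredoxins and thioredoxin reductases none was called by limma, and none had an unadjusted p under 0.05. Txn1, cytosolic thioredoxin, had log2 intensities of 5.34 and 5.39 in Celf1 cKO lenses against 4.65 and 5.48 in Control lenses. The Control lenses lay on either side of the Celf1 cKO lenses, and the log2 fold change was 0.30 ± 0.26 (95% interval -0.32 to 0.91; adjusted p = 0.471). Txn2 of the mitochondria stood at 0.33 ± 0.15, Txnrd2 at -0.15 ± 0.13 and Txnrd3 at -0.0091 ± 0.14. Txnrd1, the cytosolic reductase, had 1 probe, which was detected on no array. Of the other proteins with a thioredoxin domain, Txndc12 stood at -0.65 ± 0.18 (adjusted p = 0.0605) and Txndc5 at -0.46 ± 0.16 (adjusted p = 0.098). Txnl4a and Txnl4b entered by prefix alone, since they code for splicing factors, and were not called.

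The 3 tested genes of glutathione synthesis were not called by limma, and none had an unadjusted p under 0.05. Gclc, the catalytic subunit of glutamate-cysteine ligase, had log2 intensities of 4.45 and 4.61 in Celf1 cKO lenses and 4.38 and 4.98 in Control lenses. The lenses overlapped near background, with a log2 fold change of -0.15 ± 0.21 (95% interval -0.66 to 0.35; adjusted p = 0.659). Gclm, the modifier subunit, had 7.86 and 8.25 against 7.77 and 8.01. It also overlapped, at 0.16 ± 0.18 (interval -0.27 to 0.59; adjusted p = 0.582). Gss, glutathione synthetase, had 8.97 and 8.90 against 8.69 and 8.87. Its groups were separate by a small margin, at 0.15 ± 0.14 (interval -0.18 to 0.49; adjusted p = 0.493), and its 4 probes ran from -0.13 to 0.53. No probe on the array was named Gsr, so glutathione reductase was not analysed here.

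Among the glutaredoxins, which use glutathione to reduce protein disulfides or to carry iron-sulfur clusters, Glrx5 was called. It codes for the mitochondrial form that hands on iron-sulfur clusters. Its log2 intensities were 9.80 and 9.998 in Celf1 cKO lenses and 9.13 and 8.58 in Control lenses. The groups were separate and the Control lenses differed more, at 1.05 ± 0.21 (adjusted p = 0.025), 2.07-fold higher. The call held under all 7 other scalings or background corrections but was lost without Celf1 cKO A, Celf1 cKO B or Control B. Glrx3, which also carries iron-sulfur clusters, stood at 0.60 ± 0.19 (adjusted p = 0.0771), with both probes above 0. Glrx and Glrx2 stood at 0.10 and 0.14.

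The superoxide dismutases turn superoxide into hydrogen peroxide and were not called by limma or at an unadjusted p under 0.05. Sod1, the cytosolic copper-zinc enzyme, had log2 intensities of 11.21 and 11.50 in Celf1 cKO lenses and 11.18 and 11.10 in Control lenses. The Celf1 cKO lenses lay just above, at 0.22 ± 0.15 (interval -0.15 to 0.58; adjusted p = 0.379). Sod2, the mitochondrial manganese enzyme, had 10.95 and 10.89 against 11.02 and 11.05. Here the Celf1 cKO lenses lay just below, at -0.12 ± 0.13 (interval -0.44 to 0.20; adjusted p = 0.587). Msrb2, which repairs oxidised methionine, stood at -0.09 ± 0.14.

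The 3 genes of the NRF2 axis were not called by limma either, and none had an unadjusted p under 0.05. Nfe2l2, which codes for NRF2, had log2 intensities of 4.88 and 4.78 in Celf1 cKO lenses and 4.84 and 4.50 in Control lenses. The groups overlapped near background, at 0.16 ± 0.16 (interval -0.22 to 0.55; adjusted p = 0.53). Keap1 had 6.93 and 6.77 against 6.97 and 7.07. Its Celf1 cKO lenses lay just below, at -0.17 ± 0.14 (interval -0.51 to 0.16; adjusted p = 0.444). Nqo1, a quinone reductase and common readout of NRF2, had 4.56 and 5.08 against 5.06 and 4.69. Its lenses overlapped, at -0.05 ± 0.22 (interval -0.57 to 0.46; adjusted p = 0.888), and its probe was detected on 2 of 4 arrays. The NRF2 protein was not measured.

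The promoters were searched for the core of the antioxidant response element, TGACNNNGC, on both strands from 250 bases before to 50 bases after the start. Of the 59 genes, 54 had a RefSeq window, and 14 of these (25.9%) held the core, beside 14.0% of the 27025 genes with a window. Of the 10 called genes, 3 held it: Mgst1 and Tmx4, which were elevated, and Gsta3, which was reduced. Their windows on GRCm38.p6 are shown because calls in both directions hold a match to the core, which is in capitals. The matches share the fixed letters of the core and differ at the N positions. They are chr6:138140459-138140491 (plus strand), chr2:134644184-134644216 (minus strand) and chr1:21240452-21240484 (plus strand), each written along the strand of its gene:
Mgst1 promoter: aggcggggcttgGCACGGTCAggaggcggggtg
Tmx4 promoter: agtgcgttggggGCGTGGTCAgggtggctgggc
Gsta3 promoter: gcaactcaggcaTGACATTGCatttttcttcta
In Mgst1 and Tmx4 the core lies on the other strand and is seen here in reverse complement. Gclm, Prdx1, Sod1, Srxn1 and Nfe2l2 also held the core and were not called. A match is a description of letters, and the binding of NRF2 was not measured.

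Genes around these systems that are no members were taken from 3 lists of 67 tested genes in all. Of these, 8 were elevated and 5 reduced (19.4%, beside 11.6% of all genes). The lists were chosen with earlier results of these data known, so that difference is no test of the lists. In the list of glutathione supply and use, 2 of 14 tested genes were elevated and 1 was reduced. Chac1, which breaks glutathione down inside the cell, was at least 8.61-fold higher (adjusted p = 8.9e-04), since it was not above background in either Control lens. It passed the detection filter through the Celf1 cKO lenses and so could enter the test only by being higher there. Slc1a4, a transporter of neutral amino acids, stood at 1.25 ± 0.17 (adjusted p = 0.00988), and its call was lost without Celf1 cKO B. Ggct, the cyclotransferase of the glutathione cycle, stood at -1.32 ± 0.14 (adjusted p = 0.00524). It was called under 5 of 7 other scalings or background corrections, over which its log2 fold change ran from -1.33 to -0.50. Slc7a11, which imports cystine for glutathione synthesis, was not called (0.06 ± 0.14, adjusted p = 0.798).

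In the list of the NRF2 pathway and its classical targets, 4 of 28 tested genes were elevated, 1 was reduced and 23 were not called. The share called was 17.9%, beside 11.6% of all genes. Sqstm1 codes for p62, an autophagy receptor that binds KEAP1, and had log2 intensities of 12.35 and 12.66 in Celf1 cKO lenses against 10.32 and 10.28 in Control lenses. Both Celf1 cKO lenses lay far above, at 2.20 ± 0.16 (adjusted p = 0.00201), and the call held whichever lens was left out. Ephx1, microsomal epoxide hydrolase, stood at 1.75 ± 0.32, and its call was lost without Control A or Control B. Abcb6, a porphyrin transporter, stood at 0.81 ± 0.18 and Rbx1, a subunit of the ubiquitin ligase that KEAP1 works with, at 0.73 ± 0.13. The calls of Abcb6 and Rbx1 were lost without Celf1 cKO A, Celf1 cKO B or Control B. Abcb6 was called under 5 of 7 other scalings or background corrections. Hmox1, which breaks down heme, was the reduced gene, with log2 intensities of 10.96 and 11.41 against 12.11 and 12.04. Its groups were separate, at -0.89 ± 0.18 (adjusted p = 0.027), but the call was lost whichever lens was left out and the value came as near 0 as -0.11 under the other scalings or background corrections. Of the enzymes that make NADPH by the pentose phosphate route, G6pdx and Pgd stood at 0.15 ± 0.13 and 0.05 ± 0.17 and were not called.

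In the list of NADPH and other antioxidant enzymes, 2 of 26 tested genes were elevated and 3 were reduced (19.2% called, beside 11.6% of all genes). Of the 3 stress-responsive sestrins, Sesn3 was elevated and Sesn1 reduced, at 1.38 ± 0.18 (adjusted p = 0.00895) and -1.62 ± 0.19 (adjusted p = 0.00633), and both calls were lost without Control B and that of Sesn3 also without Celf1 cKO B, while Sesn2 was not called (-0.01 ± 0.19). Nxn, nucleoredoxin, a relative of thioredoxin, had log2 intensities of 8.29 and 8.38 in Celf1 cKO lenses and 9.96 and 9.78 in Control lenses. It lay lower in both Celf1 cKO lenses, at -1.54 ± 0.14 (adjusted p = 0.00403), and stayed called whichever lens was left out, with values from -1.55 to -0.68 under the other scalings or background corrections. Idh1 and Idh2, which make NADPH in the cytosol and in mitochondria, stood at 0.63 ± 0.16 and -0.71 ± 0.14 (adjusted p = 0.0475 and 0.0244). Both calls were lost without Celf1 cKO A, Celf1 cKO B or Control B, and Idh2 stood at 0.15 with no normalization. Of 7 other scalings or background corrections, Idh1 was called under 4 and Idh2 under 5. Catalase, Cat, was not called (-0.07 ± 0.20, adjusted p = 0.837).

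Probes of a gene could be set against each other for 22 of the 59 genes. In 14 of these all probes had log2 fold changes of 1 sign, and 8 had probes of both signs, none of them among the called genes. Gpx4, Mgst1 and Txndc11 each had 1 probe that was above background in Celf1 cKO lenses alone, as was the only retained probe of Prdx6, and such a probe could pass the filter by being higher there. Transferases are a family of near copies, and whether a probe also binds the transcript of another member was not tested. The median standard error over the beads of a probe was 4.22% to 4.26% of its intensity, background included, on 3 arrays and 7.88% on Control B, with a median of 35 or 36 beads. It is a technical error and gives nothing on the spread between lenses.

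**Figure D3:**
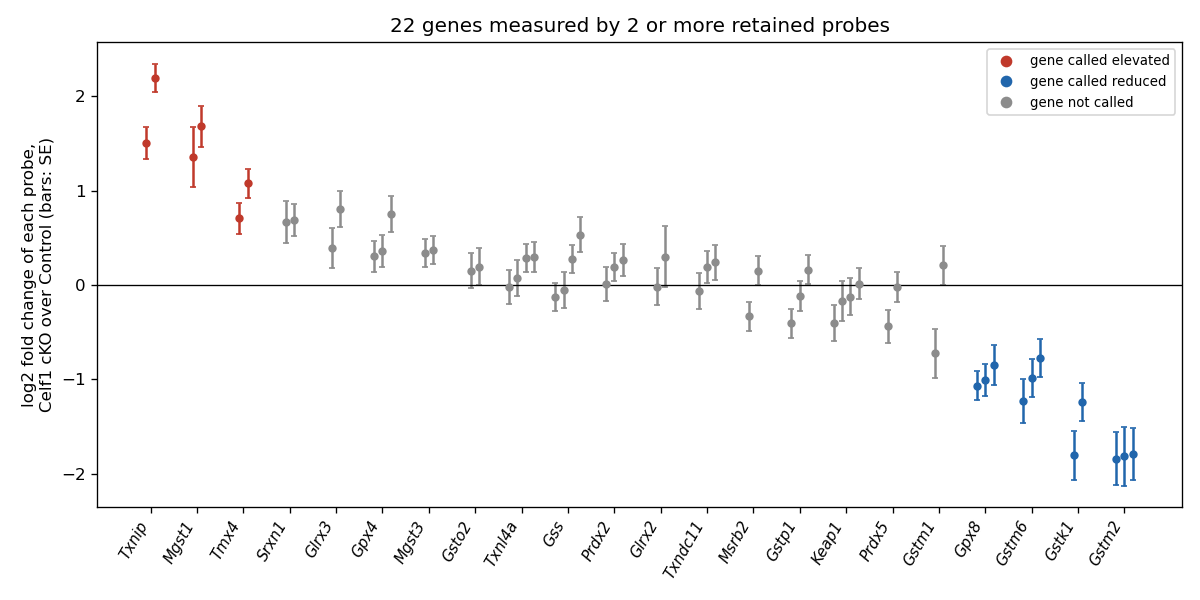
Each point is the log2 fold change of 1 retained probe (y axis, Celf1 cKO over Control, bars for SE, 2 lenses a group) for the 22 genes with 2 or more probes, ordered by the gene's own value. The Gstm2 probes lie between -1.84 and -1.79, the lower Mgst1 point is a probe that was above background in neither Control lens, and Gstm1 and Gss have probes on both sides.

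All 10 called genes kept their direction under each of the 16 other settings with all lenses and in each fit with a lens left out. Taken relative to the median of all genes, over the reported scaling and 8 others, Txnip ran from 1.45 to 2.07, Mgst1 from 0.98 to 1.98, Gstm2 from -1.87 to -1.55 and Gstk1 from -1.72 to -1.09. Of the 10, Txnip was the only gene still called in all 4 fits with a lens left out, and Txnip, Mgst1, Glrx5, Tmx4, Gstm2 and Gstk1 were called under all 7 other scalings or background corrections, leaving aside the floor of 1. With no filter on detection, where 28850 genes were tested, Txnip and Tmx4 stayed called. For these genes Control B weighed most: without it Txnip was the only one of the 59 genes called by limma, while 85 genes in each direction were called in all. In each fit with a lens left out, the lone lens of a group is assumed to vary like the other group.

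**Figure D4:**
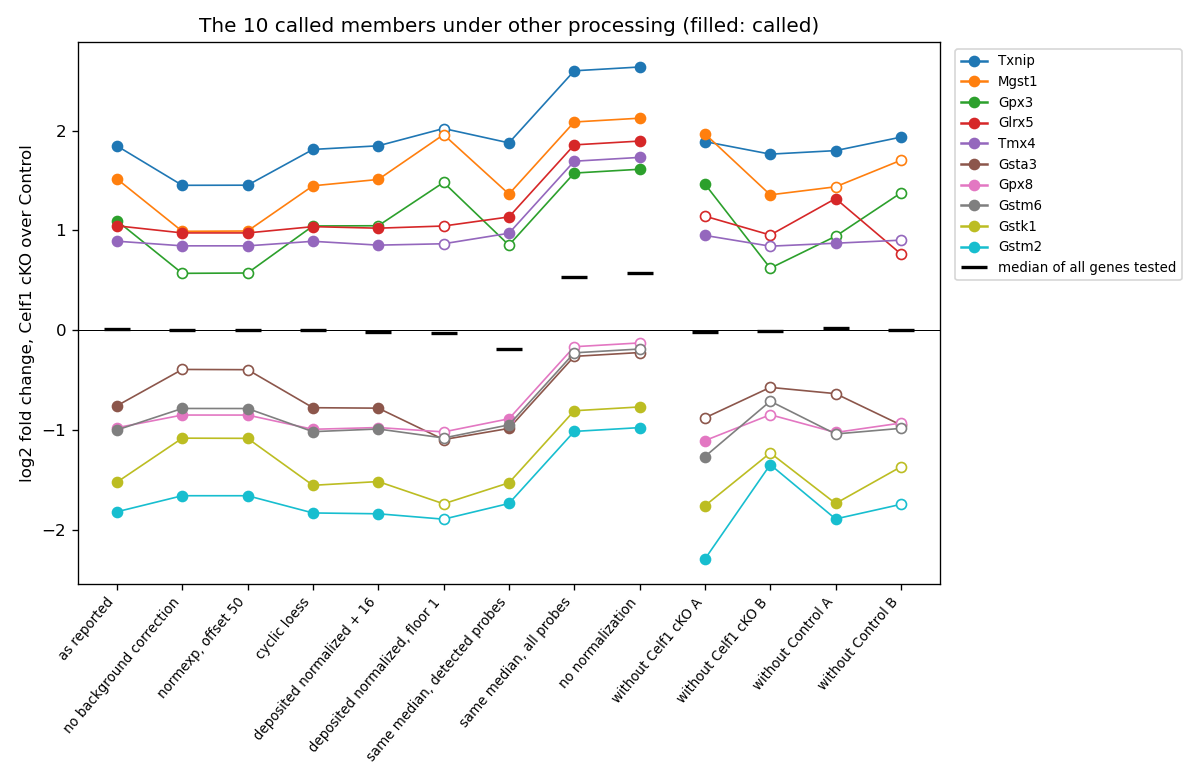
Log2 fold change (y axis, Celf1 cKO over Control) of the 10 called genes under the reported processing, 8 other scalings and 4 fits without 1 lens (x axis), with filled points where the gene was called and black bars for the median of all genes tested. Lines keep their side of 0 throughout, the bars rise to 0.53 and 0.57 when arrays are set to the same median or not normalized, and Txnip is filled everywhere except on the deposited normalized values with a floor of 1.

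Of the 85 genes, 26 had no retained probe, and 21 of these were detected on no array, among them Txnrd1, Txnl1, Msra, Msrb3, Gstt1, Gsta1, Gsta2, Gstm3, Gpx5 and Gpx6. The remaining 5 were detected on 1 array, among them Sod3, the extracellular dismutase, whose intensity before normalization was 51.5 and 55.8 in Celf1 cKO lenses and 54.4 and 43.2 in Control lenses. Just inside the rule, 6 retained probes were detected on exactly 2 arrays, and 10 probes just outside on 1. Prdx6 passed through the Celf1 cKO lenses alone, with intensities of 56.2 and 56.2 against 51.0 and 45.8, and it was not above background in either Control lens. All 4 arrays detected 50 of the 59 genes, and a gene that is listed here as not detected may still be made at a level the array does not see.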

How the data were processed

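RNA of P6 mouse lenses was measured on Illumina MouseWG-6 v2.0 BeadChips, 1 lens and 1 array per sample. The authors deposited probe intensities without normalization and after rank invariant normalization, per the file headers, with detection p-values, standard errors and numbers of beads. The study's own count model was not applied, since the values are intensities. The deposited tables hold 45281 probes, of which 18 lines shifted by a comma were left out. Genes were named through RefSeq (GRCm38.p6): 29586 probes by Entrez identifier, 2759 by accession, 2197 by symbol, 2377 by an older symbol and 8344 by none. Of the 85 member genes, 88 file symbols matched, and 1 more retained probe of Gpx8 under another symbol was averaged in. Probe positions in the files name no build and are not printed.

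Intensities without normalization were background-corrected against negative controls inferred from the detection p-values (limma 3.58.1 in R 4.3.3, offset 16), taken to log2 and quantile normalized. Retained probes of a gene were averaged, and lmFit and eBayes compared the groups (two-sided, Benjamini-Hochberg over 11516 genes). With 2 lenses a group an exact permutation test cannot go below p = 0.333, so the calls rest on limma's pooled spread. On simulated data for 11516 genes, 200 of them changed, the test recovered 35.8% of genes changed by 1 on the log2 scale, 69.9% at 1.5 and 83.3% at 2.5, with 2.33% of calls false. Where none of a gene's probes, or a probe given by itself, was above background on any array of a group, a fold is a bound against the lowest detected signal. A gene with another probe above background keeps its measured mean. Levels of different probes were not compared. Arrays were grouped by the labelled genotype. The letters A and B were not a pairing: the differences between A and B correlated at -0.0111 across genes. The rule for named genes gave array values for every called member and for 13 fixed core genes where tested, and at most 4 genes a direction in each pathway list. The members and lists were chosen with earlier results of these data known. The alternatives tried were other background corrections, scalings, filters, probe summaries, variance models, a replicate block and leaving out each lens.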

Additional observations from a re-analysis of the deposited data

How the results depend on the processing

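The 5 elevated and 5 reduced genes became 0 and 0 on the deposited normalized intensities with values under 1 set to 1, 33 and 2 with the same median over all probes, 35 and 2 with no normalization, 4 and 8 with the same median over probes detected on all arrays, and 2 and 0 with no filter on detection. Leaving out 1 lens gave 1 to 5 elevated and 0 to 5 reduced. Over all genes 1341 calls became 7, 5417, 5788, 2690 and 207 under those settings, 718 without background correction, 725 with normexp, and 163 to 1364 without 1 lens. With the same median over all probes 45.8% of all genes were elevated and 1.25% reduced, with no normalization 49.1% and 1.15%, and with the same median over detected probes 5.79% and 17.6%. The members' median of 0.10 became -0.00086 and -0.015 on the deposited normalized values (floor of 1, and plus 16), 0.0090 with cyclic loess, 0.59, 0.63 and -0.13 with those 3 scalings, and -0.027 to 0.056 without 1 lens. The medians of all genes were 0.53, 0.57 and -0.19 under those 3 scalings, and the members lay 0.060 above in each.

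Celf1 was not called on the deposited values with a floor of 1 (-1.52), with no filter on detection (-1.16) or without Control B (-1.53), and ran from -1.67 to -1.18 without 1 lens. The 8 elevated and 5 reduced pathway genes, whose alternatives were chosen after seeing the data, became 1 and 0 with the floor of 1, 31 and 2, 35 and 2, and 9 and 11 under the 3 scalings, and 3 and 2 with no filter, and 2 to 7 and 3 to 5 without 1 lens.

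Among the core genes that were not called, signs turned for Gclc (0.028 with no normalization), Sod2 (0.65 and 0.69 with the same median over all probes and no normalization), Nqo1 (0.18 and 0.21), Keap1 (0.57 and 0.61, and 0.010 with the brightest probe), Gss (-0.13 with the brightest probe) and Nfe2l2 (-0.39 with the same median over detected probes). Without 1 lens Gclm ran from -0.035 to 0.37, Nqo1 from -0.27 to 0.19, Nfe2l2 from -0.0092 to 0.36 and Txn1 from -0.12 to 0.80. By construction, no normalization and the same median over all probes leave the brighter signals of the Celf1 cKO arrays unaligned; other causes were not tested.

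With the letters A and B as a replicate block, 6 members were elevated and 6 reduced, adding Srxn1 (adjusted p = 0.0236) and Txndc12 (0.026), and no other member call changed. The letters share only a number, so this is no pairing. Precision is limited by 2 arrays a group and, for Gpx3 in Control lenses and for Gclc, Nqo1, Nfe2l2, Prdx6 and Txn1, by signals near background.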
